A study of Mus musculus with 30 samples.

Results

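Cells live with a steady supply of superoxide and peroxides, and 3 enzyme families clear them. The 9 genes described here encode those enzymes in a mouse tail fibroblast line: catalase (Cat), the superoxide dismutases (Sod1, Sod2, Sod3) and the glutathione peroxidases Gpx1, Gpx3, Gpx4, Gpx7 and Gpx8. They were chosen by gene symbol, through the Ensembl identifiers of the deposited table, and they are 9 of its 29861 genes. All 9 passed the filter on low values (at least 1 TPM in at least 3 libraries), as did 13644 genes in all. TPM, transcripts per 1000000 transcripts, divides a gene's reads by transcript length and library total, so levels of different genes can be set side by side.

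RNA came from 1 primary tail fibroblast line, CCG-HTA-1, of the genetically mixed UMHet3 mouse stock, at passage 4. The line was grown at ambient oxygen in high-glucose medium without pyruvate, and its donor mice were 5 to 8 weeks old, or 8 to 11 weeks in the label of Dihydrorotenone replicate 1. Ribosome-depleted RNA was taken 48 hours after addition of 1 of 8 compounds (3 libraries each) or of the solvent DMSO (6 libraries), 30 libraries in all, and doses are not used here. The compounds were the respiratory chain inhibitors Antimycin A and Dihydrorotenone, the flavoenzyme inhibitor Diphenyleneiodonium Cl, the plant chalcone Cardamonin, BerberineA, the potassium channel blocker Clofilium tosylate, the compound AEG 3482 and the microtubule poison Podofilox. The study's title names NRF2, a transcription factor of the stress response, and pathways that do not depend on it. Since every library comes from the same line, the p-values measure the spread between these cultures or libraries only, and not between animals.

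As background, superoxide dismutases turn superoxide into hydrogen peroxide and oxygen: Sod1 with copper and zinc mainly in the cytosol, Sod2 with manganese in the mitochondrial matrix, and Sod3 with copper and zinc outside the cell, bound to matrix. Catalase, an enzyme of peroxisomes, breaks hydrogen peroxide down to water and oxygen. Glutathione peroxidases reduce peroxides with thiols: Gpx1 acts in the cytosol and mitochondria, Gpx3 is secreted, and Gpx4 reduces lipid peroxides within membranes. These 3 carry selenocysteine, while Gpx7 and Gpx8 lie in the endoplasmic reticulum and use cysteine.

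Library facts were as follows. TPM summed to 927024 to 937134 per library, between 12229 and 12700 genes reached 1 TPM, and no library's column was identical to another's. All 10 fibroblast markers on the list (collagens, Dcn, Lum, Pdgfra and others) were present, at a summed 14046 to 16830.5 TPM in DMSO, 14691 to 16807 in AEG 3482, 6163 to 8029 in Cardamonin and 10678 to 14390.1 in the other 6 compounds. Of the markers of other cell types, those of endothelium and muscle stayed below 1 TPM throughout, as did Krt5, Krt14, Adipoq, Plin1, Acan, Dct and the leukocyte marker Ptprc. The fat list reached 5.59 to 32.2 TPM through Fabp4, with 17.2 to 28.6 in DMSO and 5.59 to 8.16 in AEG 3482. The melanocyte list, mostly Mlana, summed to 4.47 to 6.87 TPM in DMSO, 1.22 to 2.15 in Cardamonin and AEG 3482 and 16.1 to 18.6 in Antimycin A, and the part of these markers in any result was not tested. TPM has no record of read depth, so the depth behind each value is unknown.

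The 5 glutathione peroxidases differed at the residue that does the chemistry. In the 15 codons around it, taken from GENCODE M21 transcripts, the selenium enzymes had an in-frame TGA stop codon, read as selenocysteine, and the others a cysteine codon. This codon is in capitals, and its number in the reading frame was 47 in Gpx1, 73 in Gpx3, 129 in the longest Gpx4 form, 56 in Gpx7 and 79 in Gpx8.
Gpx1: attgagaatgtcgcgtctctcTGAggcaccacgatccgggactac
Gpx3: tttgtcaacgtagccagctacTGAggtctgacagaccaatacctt
Gpx4: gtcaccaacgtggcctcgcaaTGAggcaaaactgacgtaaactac
Gpx7: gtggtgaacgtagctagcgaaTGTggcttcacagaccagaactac
Gpx8: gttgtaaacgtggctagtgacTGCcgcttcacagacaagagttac
Under Cardamonin Gpx1 and Gpx3 of the first kind and Gpx7 and Gpx8 of the other all fell, and Gpx4 was not called.

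In DMSO the secreted Gpx3 was the most abundant of the 9, at 1444 ± 43.4 TPM (SD, n = 6 DMSO libraries). Gpx4 and Sod1 followed at 476 ± 41.4 and 475 ± 17.4 TPM. Gpx1 (314 ± 17.8 TPM) and Gpx8 (302 ± 17.7 TPM) came next, then Sod2 (204 ± 5.69 TPM), Sod3 (192 ± 14.5 TPM), Cat (102 ± 6.08 TPM) and Gpx7 (91.6 ± 6.79 TPM). The other glutathione peroxidase genes of the table were close to silent: Gpx2 and Gpx6 were listed at 0 in every library and Gpx5 reached at most 0.0357 TPM, and none was tested. The 9 genes together held 3545 to 3677 TPM in DMSO, 2413 to 2505 in Cardamonin, 2870.0 to 2888 in AEG 3482 and 2782 to 3051 in Podofilox.

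**Figure D1:**
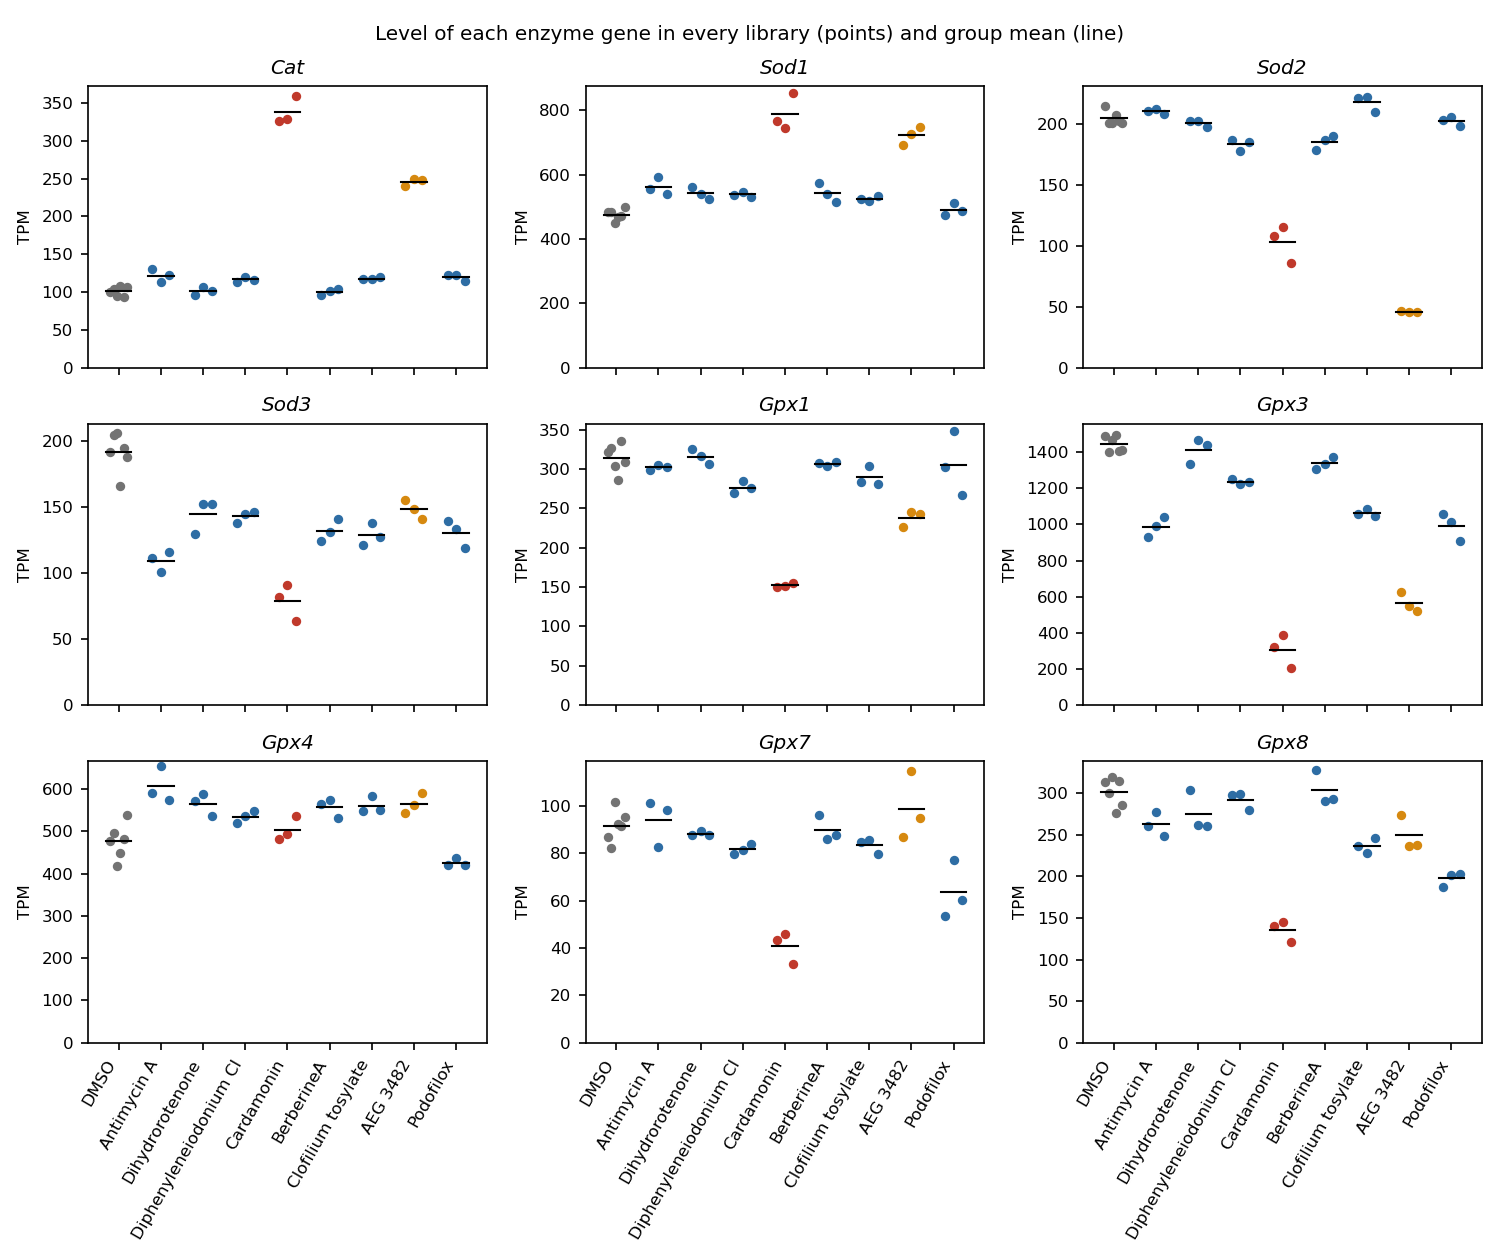
TPM of each of the 9 genes in every library (linear axis from 0), 1 panel per gene and 1 point per library, grouped by compound, with a line at the group mean. Cat and Sod1 sit highest in Cardamonin and AEG 3482, Sod2 sits lowest in AEG 3482, and Gpx3 sits lowest in Cardamonin.

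Each compound was compared with DMSO in limma (log2(TPM + 1), all 30 libraries in 1 fit, Benjamini-Hochberg adjustment over the 13644 genes, threshold 0.05). The changes given below are differences of mean log2(TPM + 1) with their standard errors. Cardamonin changed 8 of the 9 genes, 2 higher and 6 lower, where 70.3% of all genes tested were called, 37.3% higher and 33.0% lower. AEG 3482 changed 8 as well, 3 higher and 5 lower, with 68.1% of all genes called, 41.3% higher and 26.8% lower. At such backgrounds a count of 8 says little about these genes as a group, and the sizes and directions of single genes carry the description.

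The other compounds called fewer. Antimycin A called 6 of the 9, 3 in each direction, against 37.3% of all genes (21.8% higher, 15.5% lower). Diphenyleneiodonium Cl called 6, also 3 in each direction, against 25.7% (14.0% and 11.7%). Clofilium tosylate called 6, again 3 in each direction, against 23.4% (10.9% and 12.5%). Podofilox called 6, with 1 higher and 5 lower, against 46.2% (26.2% and 20%). Dihydrorotenone called 3, with 2 higher and 1 lower, against 14.4% (4.95% and 9.43%), and BerberineA 3, split the same way, against 21.7% (12.6% and 9.16%). The 3 genes called in both of these were Sod1 and Gpx4, higher, and Sod3, lower. The count for Diphenyleneiodonium Cl rested in part on its replicate 3, without which 3 genes were called.

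Median changes over the 9 genes set Cardamonin apart by size, at -1.04 against 0.03 over all genes tested. For AEG 3482 the median was -0.27 against 0.10, for Podofilox -0.16 against 0.04, for Diphenyleneiodonium Cl -0.16 against 0.02 and for Clofilium tosylate -0.11 against 0.00. The medians for Antimycin A, Dihydrorotenone and BerberineA lay within 0.05 of those of all genes. All compounds were compared with the same 6 DMSO libraries, so the comparisons are not independent of one another.

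**Figure D2:**
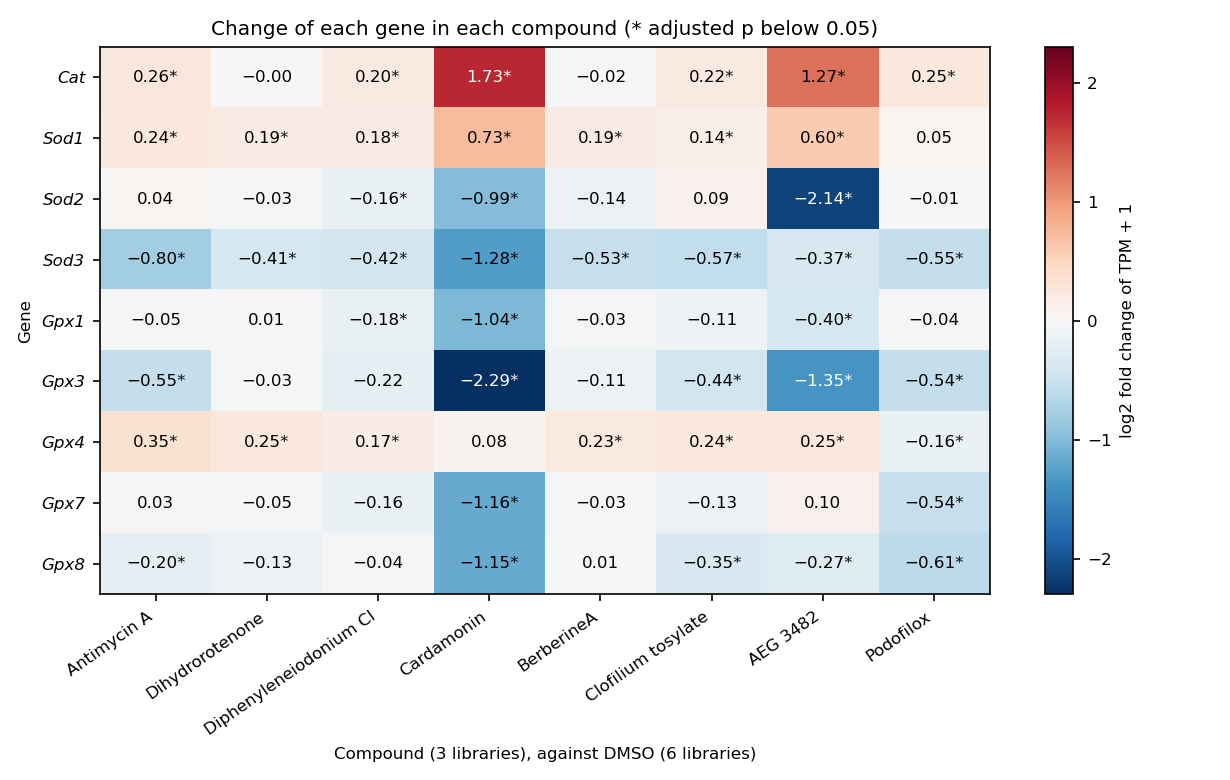
Difference in mean log2(TPM + 1) from DMSO for each gene (rows) and compound (columns), with the value printed in each cell and an asterisk where limma's adjusted p was below 0.05. Sod3 was lower in all 8 columns, Sod1 was higher in 7, and the largest values stand in the Cardamonin and AEG 3482 columns.

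Catalase (ENSMUSG00000027187, chr2:103453849-103485160 of GRCm38, minus strand) rose more than any other of the 9. Its DMSO libraries ran from 93.6 TPM through a median of 103 to 108. Under Cardamonin the 3 libraries read 326.5, 329 and 359.5 TPM, and under AEG 3482 they read 240.4, 249.1 and 248.5. Both groups lay far above every DMSO library and did not overlap each other. The change was 1.73 ± 0.05 for Cardamonin (3.31-fold, adjusted p = 2.61e-20) and 1.27 ± 0.05 for AEG 3482 (2.41-fold, adjusted p = 2.40e-17).

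A smaller rise of Cat was seen with 4 further compounds. Antimycin A libraries read 130.1, 113 and 122 TPM, and Podofilox libraries 123, 123 and 115. Clofilium tosylate gave 117, 117 and 119.8 TPM, and Diphenyleneiodonium Cl 114, 120.3 and 116. All 12 of these values were above the highest DMSO library, and the changes were 0.26, 0.25, 0.22 and 0.20 (adjusted p from 1.66e-04 to 3.21e-03). These 4 groups overlapped and their neighbours in the order of means did not differ in limma (adjusted p 0.715 to 0.953). Dihydrorotenone (95.8, 107 and 101 TPM) and BerberineA (95.5, 102 and 103.5 TPM) overlapped DMSO and were not called.

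Sod1 (ENSMUSG00000022982, chr16:90220754-90226329, plus strand), the cytosolic dismutase, was likewise highest in Cardamonin, then AEG 3482, then Antimycin A, with smaller steps than Cat, while the order of the other groups differed. DMSO libraries ran from 448.5 through 476 to 499 TPM. Cardamonin libraries read 766, 744 and 855 TPM and AEG 3482 libraries 690.5, 727 and 747, all above every other library. The rise was 0.73 ± 0.04 for Cardamonin (1.66-fold, adjusted p = 9.24e-14) and 0.60 ± 0.04 for AEG 3482 (1.52-fold, adjusted p = 6.82e-12).

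In 5 further compounds Sod1 rose by 0.14 to 0.24. Antimycin A libraries read 556, 591 and 540 TPM, Dihydrorotenone 562, 539 and 525, and Diphenyleneiodonium Cl 537, 547 and 531. BerberineA libraries read 574, 540.5 and 515 TPM and Clofilium tosylate 524.5, 519 and 532. Every library of these 5 groups was above every DMSO library, and no neighbours among them in the order of means differed (adjusted p 0.626 to 0.993). Under median-ratio scaling the calls for BerberineA (adjusted p = 0.0533) and Clofilium tosylate (0.0769) were lost, the latter also without its replicate 3. Podofilox (474, 511 and 488 TPM) overlapped DMSO, and its difference of 0.05 was not called. The last 650 bases of Sod1 overlap Scaf4 on the opposite strand (12.4 to 24.1 TPM), and the strand of the libraries is not given in the sources used here.

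Of the 8 members with a promoter window in RefSeq (250 bases before to 50 after the start, GRCm38.p6; none for Sod3), the 250 upstream bases are shown for the pair that rose together. Capitals mark a match to TGACNNNGC, the core of the antioxidant response element that NRF2 is known to bind, searched on both strands of the 300 bases.
Cat: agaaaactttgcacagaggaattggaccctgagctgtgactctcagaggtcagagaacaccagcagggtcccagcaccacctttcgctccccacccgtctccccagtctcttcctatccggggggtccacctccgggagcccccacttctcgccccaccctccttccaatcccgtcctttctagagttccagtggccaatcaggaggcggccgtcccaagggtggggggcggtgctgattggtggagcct
Sod1: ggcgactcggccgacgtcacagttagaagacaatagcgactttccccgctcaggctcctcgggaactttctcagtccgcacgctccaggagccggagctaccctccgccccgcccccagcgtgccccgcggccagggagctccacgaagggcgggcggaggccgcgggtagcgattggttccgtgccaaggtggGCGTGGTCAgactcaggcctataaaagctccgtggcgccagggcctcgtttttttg
The windows lie at chr2:103485154-103485403 (minus strand) and chr16:90220512-90220761 (plus strand). The 8 members have 11 windows in all, 4 of them of Gpx4, and the letters were found once, in Sod1, at bases -56 to -48 from the start on the strand opposite to the gene, where they read TGACCACGC. They occur in 12.4% of the 32851 RefSeq windows, and the match is a description of letters, not a binding site. Both windows were rich in G and C, at 62.0% in Cat and 66.7% in Sod1 against a median of 52.7% over all windows.

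Sod2 (ENSMUSG00000006818, chr17:13006846-13040063, plus strand), the mitochondrial dismutase, moved the other way and most in AEG 3482. DMSO libraries ran from 200.1 through 201 to 214 TPM. AEG 3482 libraries read 46.5, 45.2 and 45.1 TPM and Cardamonin libraries 108, 115 and 85.5. Both groups lay below all other libraries and apart from each other. Sod2 fell by 2.14 ± 0.05 in AEG 3482 (4.40-fold lower, adjusted p = 5.29e-21) and by 0.99 ± 0.05 in Cardamonin (1.99-fold lower, adjusted p = 1.09e-14).

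Elsewhere Sod2 stayed near the DMSO level. Antimycin A libraries read 210.3, 212 and 208 TPM, Clofilium tosylate 220.5, 222 and 209.6, Podofilox 203, 205 and 198, and Dihydrorotenone 202, 202 and 197. None of these 4 was called. BerberineA (178.5, 187 and 189.7 TPM) and Diphenyleneiodonium Cl (186, 177 and 185 TPM) lay below every DMSO library, with differences of -0.14 (adjusted p = 0.0631) and -0.16 (adjusted p = 0.0328). The Diphenyleneiodonium Cl call was lost without any 1 of its 3 libraries (adjusted p 0.0604 to 0.142) or without DMSO replicate 1 (0.0646). Of the 31-base stretches of Sod2 transcripts, 22.0% also occur in AC166110.4, which has no row in the deposited table. In Rps6ka2, at 9.68 to 13.9 TPM, 20.1% occur, so a share of the reads of these genes could be split between them.

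Sod3 (ENSMUSG00000072941, chr5:52363791-52371418, plus strand), the extracellular dismutase, was lower in all 8 compounds than in the 6 DMSO libraries that these comparisons share. DMSO libraries ran from 166 through 193 to 206 TPM, and every treated library was lower. Cardamonin libraries read 81.6, 91.1 and 63.9 TPM and Antimycin A libraries 112, 101 and 115.5, the 2 lowest groups. Their falls were 1.28 ± 0.08 (adjusted p = 4.59e-13) and 0.80 ± 0.08 (adjusted p = 2.80e-08).

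In the other 6 compounds Sod3 lay between these groups and DMSO. Clofilium tosylate libraries read 121, 137.5 and 127 TPM, Podofilox 139, 133 and 119, and BerberineA 124, 131 and 141. Diphenyleneiodonium Cl read 138, 145 and 146 TPM, Dihydrorotenone 129, 152 and 152, and AEG 3482 155, 148.7 and 141. No neighbours among these 6 in the order of means differed (adjusted p 0.732 to 0.967). Their changes ran from -0.57 in Clofilium tosylate to -0.37 in AEG 3482 (adjusted p at most 1.67e-03).

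A list of 4 macrophage markers was also lower in every treated library: summed levels were 141.5 to 195 TPM in DMSO and 39.3 to 111 over the 24 treated libraries. Nearly all of it was Lyz2, lysozyme (129 to 180.4 TPM in DMSO), while Ptprc, the pan-leukocyte marker, did not exceed 0.876 TPM in any library. The part of such cells in the fall of Sod3 was not tested. In such bulk RNA, fewer cells of a type and less RNA per cell cannot be told apart.

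Gpx3 (ENSMUSG00000018339, chr11:54902453-54910377, plus strand), the secreted peroxidase, had the widest range of group means of the 9, 2.29 on the log2 scale, wider than that of 95.8% of genes tested. DMSO libraries ran from 1403 through 1438 to 1494 TPM. Cardamonin libraries read 321, 390 and 203 TPM and AEG 3482 libraries 624.9, 551 and 522. All 6 values were below those of every other group, and the 2 groups did not overlap. Gpx3 fell by 2.29 ± 0.11 in Cardamonin (4.90-fold lower, adjusted p = 6.57e-16) and by 1.35 ± 0.11 in AEG 3482 (2.55-fold lower, adjusted p = 4.06e-11).

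With 3 more compounds Gpx3 fell by 0.44 to 0.55. Antimycin A libraries read 929, 992 and 1042 TPM, Podofilox 1056, 1014 and 910.3, and Clofilium tosylate 1059, 1084 and 1049. These groups lay below every DMSO library, and neighbours in the order did not differ (adjusted p 0.564 and 0.970). Diphenyleneiodonium Cl (1249, 1226 and 1237 TPM) and BerberineA (1308, 1332 and 1376 TPM) also lay below every DMSO library, with uncalled differences of -0.22 (adjusted p = 0.142) and -0.11 (0.531). Dihydrorotenone (1332, 1470.0 and 1440.0 TPM) overlapped DMSO.

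Cardamonin replicate 3 was the lowest of its group for Gpx3, Sod2, Sod3, Gpx7 and Gpx8 and the highest for Cat, Sod1, Gpx1 and Gpx4. Without it the fall of Gpx3 was 2.03, that of Sod3 1.14 and that of Sod2 0.86 on the log2 scale. The 6 falls and 2 rises under Cardamonin were all still called.

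Gpx1 (ENSMUSG00000063856, chr9:108338903-108340343, plus strand), the cytosolic and mitochondrial peroxidase, had libraries of 286 to 335 TPM in DMSO with a median of 315. Cardamonin libraries read 150.4, 152 and 155 TPM and AEG 3482 libraries 226, 245 and 243. Each group was below all libraries of the groups ranked above it. Gpx1 fell by 1.04 ± 0.06 in Cardamonin (2.05-fold lower, adjusted p = 7.28e-15) and by 0.40 ± 0.06 in AEG 3482 (adjusted p = 6.44e-07). Diphenyleneiodonium Cl (269, 285 and 276 TPM) was lower by 0.18 (adjusted p = 0.0175), a call lost without its replicate 1 (0.0838) or 3 (0.0570). The other 5 compounds had libraries of 267 to 348 TPM, both extremes in Podofilox, and none was called.

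Gpx4 (ENSMUSG00000075706, chr10:80047166-80056439, plus strand), the lipid peroxidase of membranes, had the narrowest range of group means, 0.51 on the log2 scale, with 27.2% of genes narrower. DMSO libraries ran from 417.5 through 479 to 539 TPM, a wide spread for this set. Antimycin A libraries read 590.3, 654 and 575 TPM and were the highest, with a rise of 0.35 ± 0.06 (adjusted p = 2.60e-05). AEG 3482 (543.5, 562 and 591 TPM), Clofilium tosylate (547, 584 and 551 TPM), Dihydrorotenone (571, 589 and 537 TPM) and BerberineA (565.5, 573.5 and 532 TPM) rose by 0.23 to 0.25. Of these 4 groups AEG 3482 and Clofilium tosylate did not overlap DMSO, and the other 2 did.

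Several Gpx4 calls were near the threshold. Diphenyleneiodonium Cl (519.7, 536 and 549 TPM) was called higher by 0.17 (adjusted p = 0.0304) and Podofilox (419.8, 437 and 421 TPM) lower by 0.16 (adjusted p = 0.0278), and both overlapped DMSO. The first was lost under median-ratio scaling (adjusted p = 0.122) and without Diphenyleneiodonium Cl replicate 2 or 3 or DMSO replicate 3 or 4 (0.0568 to 0.125). The second was lost under quantile normalization (0.279) and without Podofilox replicate 1 or 3 or DMSO replicate 2 or 6 (0.0525 to 0.0923). The AEG 3482 call was also lost under median-ratio scaling, with a difference of 0.10 (adjusted p = 0.232). Cardamonin (482, 492.6 and 537 TPM) was not called, with a difference of 0.08 (adjusted p = 0.205). Of the 31-base stretches of Gpx4, 38.7% are shared with the pseudogene Gpx4-ps2, which has no row in the table, and how the authors' quantification treated these reads is not given in the sources used here.

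Gpx7 (ENSMUSG00000028597, chr4:108400390-108406961, minus strand) and Gpx8 (ENSMUSG00000021760, chr13:113042753-113046410, minus strand), the cysteine peroxidases of the endoplasmic reticulum, were both lower in Cardamonin and in Podofilox. Gpx7 ran from 82.0 through 92.0 to 102 TPM in DMSO. It read 43.5, 45.7 and 33.0 TPM in Cardamonin and 53.3, 76.9 and 60.2 in Podofilox, all below every DMSO library. The falls were 1.16 ± 0.10 (2.23-fold lower, adjusted p = 1.18e-10) and 0.54 ± 0.10 (1.45-fold lower, adjusted p = 8.62e-05). In AEG 3482 it read 86.9, 115 and 94.7 TPM, overlapping DMSO, with a difference of 0.10 that was not called and turned to -0.05 under median-ratio scaling. The remaining 5 compounds had 79.5 to 101 TPM and no call.

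Gpx8 ran from 276 through 308 to 320.2 TPM in DMSO. It read 140.0, 145 and 121 TPM in Cardamonin, 188, 202 and 203 in Podofilox, and 237, 228 and 246 in Clofilium tosylate. These 3 groups lay below every DMSO library. The falls were 1.15 ± 0.06 (2.22-fold lower, adjusted p = 1.87e-14), 0.61 ± 0.06 (adjusted p = 2.08e-08) and 0.35 ± 0.06 (adjusted p = 2.38e-04).

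A further 2 falls of Gpx8 were called. AEG 3482 libraries read 274, 237 and 238 TPM, all below DMSO, a fall of 0.27 (adjusted p = 5.64e-04). Antimycin A libraries read 261, 278 and 249.1 TPM, overlapping DMSO, a fall of 0.20 (adjusted p = 0.0161) that was lost without its replicate 1 (0.0539) or 3 (0.103). The other 3 compounds had 261 to 329 TPM and no call. Gpx8 lies wholly within the span of Cdc20b on the opposite strand, which had at most 1.58 TPM.

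The lower level of 6 members in Cardamonin went with a lower sum of the 10 fibroblast markers, 6163 to 8029 TPM, against 14046 or more in DMSO. Smaller falls below every DMSO library were seen in Antimycin A (10678 to 11990 TPM) and Clofilium tosylate (12281 to 13117). BerberineA (12688 to 14006), Podofilox (13073 to 13933) and Diphenyleneiodonium Cl (13214 to 13902) were also below DMSO, and Dihydrorotenone (12446 to 14390) overlapped it. In AEG 3482, whose marker sum of 14691 to 16807 TPM lay within the DMSO range, Sod2, Sod3, Gpx1, Gpx3 and Gpx8 also fell. Such a sum mostly follows its most abundant genes, and the single markers are not given here. The part of the marker change in the Cardamonin falls was not tested.

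Cardamonin and AEG 3482, which gave the largest changes, were compared directly. All 9 genes were called, 3 higher and 6 lower in Cardamonin, where 55.3% of all genes were called, 22.6% higher and 32.7% lower. Cat was higher by 0.46 ± 0.06 (adjusted p = 1.98e-07) and Sod2 by 1.15 ± 0.06 (2.21-fold, adjusted p = 7.50e-14). Thus both compounds lowered Sod2, and AEG 3482 lowered it further.

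The largest difference of the opposite sign was that of Gpx7, lower in Cardamonin by 1.26 ± 0.12 (2.40-fold lower, adjusted p = 1.12e-09). Gpx3 was lower by 0.94 ± 0.13, Sod3 by 0.92 ± 0.10, Gpx8 by 0.88 ± 0.07 and Gpx1 by 0.64 ± 0.06 (adjusted p at most 5.71e-07). For Sod1 and Gpx4 the differences were 0.13 (adjusted p = 0.0384) and -0.17 (0.0352). Both calls were lost with no filter on low values (0.0549 and 0.0575). The Gpx4 call depended on scaling. It was lost under median-ratio scaling (difference -0.095, adjusted p = 0.338), quantile normalization (0.189) and rescaling without the 20 most abundant genes (0.105). The Sod1 call was lost in a fit of the 2 groups alone (0.135). It was also lost without Cardamonin replicate 3 (0.293) or AEG 3482 replicate 1 (0.168) or 2 (0.0619). That of Gpx4 was lost without Cardamonin replicate 1 or 2 or AEG 3482 replicate 2 or 3 (0.0633 to 0.136). The libraries of all genes but Sod1 were apart between the 2 compounds, as they were for 62.4% of all genes.

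The 2 respiratory chain inhibitors act at different sites, Antimycin A at complex III and Dihydrorotenone, a relative of rotenone, at complex I. Between them 3 of the 9 genes were called, 1 higher and 2 lower in Antimycin A, with 15.5% of all genes called, 11.6% higher and 3.91% lower. Antimycin A had more Cat, by 0.26 ± 0.06 (adjusted p = 2.27e-03), less Sod3, by -0.40 ± 0.10 (adjusted p = 5.46e-03), and less Gpx3, by -0.52 ± 0.13 (adjusted p = 5.23e-03). For the other 6 no difference was called. Their 95% intervals were widest for Gpx7, from -0.15 to 0.32, and for Sod1 ran from -0.05 to 0.16, for Sod2 from -0.06 to 0.20, for Gpx1 from -0.20 to 0.07, for Gpx4 from -0.04 to 0.24 and for Gpx8 from -0.22 to 0.09. Doses are not used here, so whether those of the 2 compounds match was not examined.

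**Figure D3:**
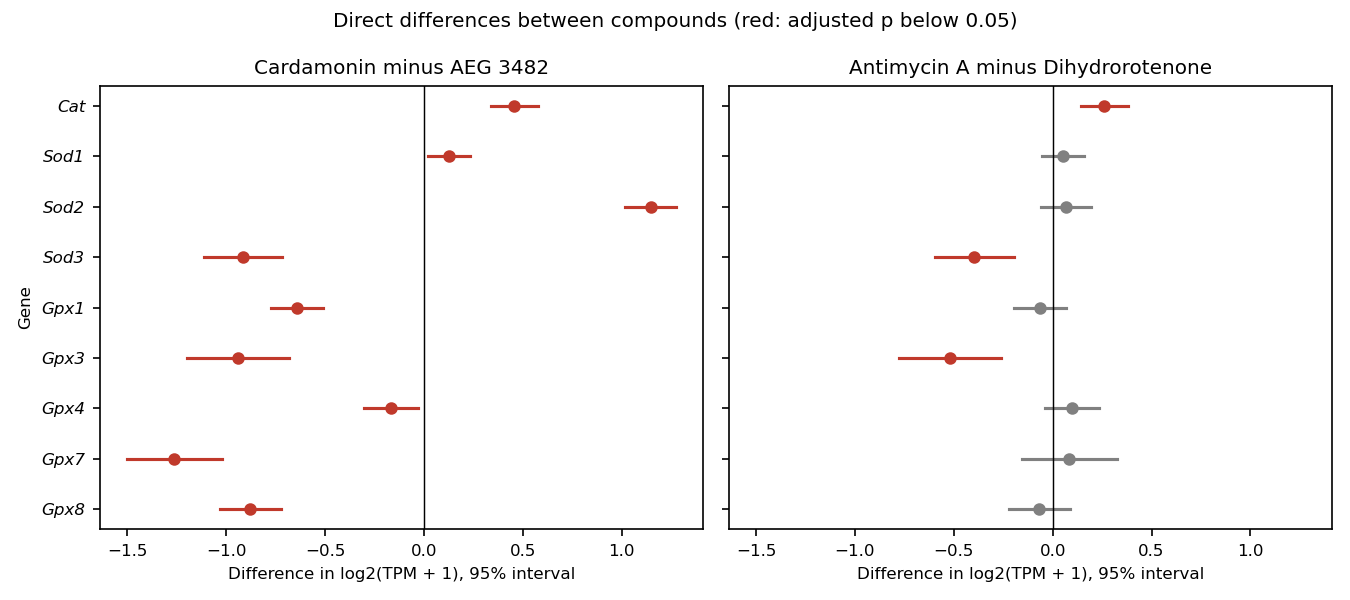
Direct differences in mean log2(TPM + 1), points with 95% confidence intervals, for the 9 genes, Cardamonin minus AEG 3482 on the left and Antimycin A minus Dihydrorotenone on the right, with called differences in red and the others in grey. Sod2 stands highest on the left at 1.15 and Gpx7 lowest at -1.26, and on the right Gpx3 is lowest at -0.52.

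The make-up of the set shifted with these changes. Cat made up 2.61 to 3.04% of the summed TPM of the 9 genes in DMSO, 13.1 to 14.9% in Cardamonin and 8.32 to 8.66% in AEG 3482. Sod1 went from 12.6 to 13.7% in DMSO to 29.7 to 35.4% in Cardamonin and 23.9 to 26.0% in AEG 3482. Gpx3, the largest share in DMSO at 38.8 to 42.1%, held 8.42 to 15.6% in Cardamonin and 18.2 to 21.6% in AEG 3482, and this smaller sum raises the shares of the other genes beyond the change in their levels. Sod2 held 5.52 to 5.85% in DMSO and 1.57 to 1.61% in AEG 3482.

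Genes that supply or surround these enzymes were counted from lists chosen by function. Their counts are to be read against the share of all genes called, 70.3% in Cardamonin, 68.1% in AEG 3482 and 46.2% in Podofilox, and their medians against 0.03, 0.10 and 0.04 over all genes. For selenoprotein synthesis, which decodes the TGA codon shown above, 5 of 8 genes were higher and 1 lower in Cardamonin, 3 and 2 in AEG 3482, and 2 and 2 in Podofilox. The calls, 6, 5 and 4 of 8, were near those shares, and the list medians were 0.29, 0.07 and 0.01. The Podofilox count was 2 without its replicate 1 or 3, and the AEG 3482 count 3 under median-ratio scaling. Sephs2, which makes the selenium donor, rose by 1.17 ± 0.06 in Cardamonin (adjusted p = 1.07e-15), from 22.8 ± 1.72 TPM (n = 6) to 52.6 ± 2.08 (n = 3), and by 0.53 in Podofilox. In AEG 3482 it read 23.5 ± 1.04 TPM and was not called. Secisbp2, which binds selenoprotein messages, rose by 0.64 in Cardamonin, Trnau1ap, which binds the selenocysteine tRNA, by 0.55 there and 0.45 in AEG 3482, and Sepsecs, the last enzyme of selenocysteine synthesis, fell by 0.46 there and by 0.43 in AEG 3482.

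Import of catalase into peroxisomes was covered by 9 peroxins, of which 4 were higher and 2 lower in Cardamonin, 5 higher and 1 lower in AEG 3482, and none called in Podofilox, with medians of 0.08, 0.20 and 0.02. The 6 of 9 called in each of the first 2 is close to the share of all genes. Pex13, part of the docking complex, rose from 39.7 ± 6.22 TPM to 70.04 ± 2.37 in Cardamonin (0.82 ± 0.12, adjusted p = 6.89e-07) and to 56.1 ± 3.18 in AEG 3482 (0.50 ± 0.12, adjusted p = 4.58e-04). Of 5 tested genes of copper supply, 2 were higher and 2 lower in Cardamonin and 2 higher and 1 lower in AEG 3482, with medians of 0.01 and 0.15. The copper importer Slc31a1 rose by 0.68 and 0.55 in these 2, and its relative Slc31a2 fell by 0.75 and 0.44 (adjusted p = 6.66e-10 and 5.10e-06). The copper pump Atp7a rose by 0.68 in Cardamonin, and Ccs, the copper chaperone of Sod1, fell by 0.25 in Cardamonin. In AEG 3482 Ccs was called higher by 0.15 as deposited and read -0.01 under median-ratio scaling and -0.03 under quantile normalization.

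Among 9 tested enzymes that make superoxide or hydrogen peroxide, 4 were lower and 2 higher in Cardamonin, 5 lower and 2 higher in AEG 3482, and 5 lower and 1 higher in Podofilox. The list medians were -0.17, -0.18 and -0.18. Diphenyleneiodonium Cl went the other way, with 4 higher and none lower, and Antimycin A had 3 higher and 2 lower, with 25.7% and 37.3% of all genes called. Leaving out 1 library gave 2 to 5 calls for Diphenyleneiodonium Cl. The summed level of the full list was 497 to 574 TPM in DMSO, 683 to 717 in Diphenyleneiodonium Cl and 655 to 693 in Antimycin A. It was also above every DMSO library in BerberineA (615 to 693), Clofilium tosylate (597 to 641) and Dihydrorotenone (587 to 623). Podofilox (487 to 518) overlapped DMSO, and Cardamonin (443 to 462) and AEG 3482 (444 to 446) lay below it. Cybb, the catalytic subunit of the phagocyte NADPH oxidase, fell from 41.7 ± 6.39 TPM in DMSO to 8.02 ± 2.42 in Cardamonin and 3.56 ± 0.444 in AEG 3482. Its changes were -2.27 ± 0.12 (adjusted p = 8.48e-15) and -3.22 ± 0.12 (adjusted p = 1.39e-17), and Cardamonin exceeded AEG 3482 by 0.95 ± 0.14 in the direct comparison (adjusted p = 2.75e-06), so the order of the 2 compounds was that of Sod2. The summed level of the 4 macrophage markers, nearly all of it Lyz2 in DMSO, was lower as well. It was 84.2 to 90.4 TPM in Cardamonin and 101 to 111 in AEG 3482 against 141.5 to 195 in DMSO. The part of such cells in the fall of Cybb was not tested. Nox4 fell by 1.16 and 0.56, and Cyba, the partner of both oxidases, by 0.98 and 0.28. Aox1, an aldehyde oxidase, rose by 1.24 and 0.82.

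Of 6 tested genes of lipid peroxidation around Gpx4, 3 were higher and 1 lower in Cardamonin and in Podofilox, and 3 higher in AEG 3482. The list medians were 0.16 in Cardamonin, 0.32 in Podofilox and 0.10 in AEG 3482, and 2 genes in place of 4 were called without Cardamonin replicate 1. Acsl4, which loads membranes with polyunsaturated fatty acids, rose by 0.82 ± 0.06 in Cardamonin and 0.92 ± 0.06 in Podofilox (adjusted p = 1.19e-11 and 9.51e-12). Gch1, of tetrahydrobiopterin synthesis, rose by 0.69 in Cardamonin, and Lpcat3, a lysophospholipid acyltransferase, by 0.83 in AEG 3482. Antimycin A, Diphenyleneiodonium Cl, BerberineA and Clofilium tosylate each had 1 of the 6 called lower and none higher, and Dihydrorotenone had 2 lower and none higher. In those 5 compounds 14.4 to 37.3% of all genes were called.

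**Figure D4:**
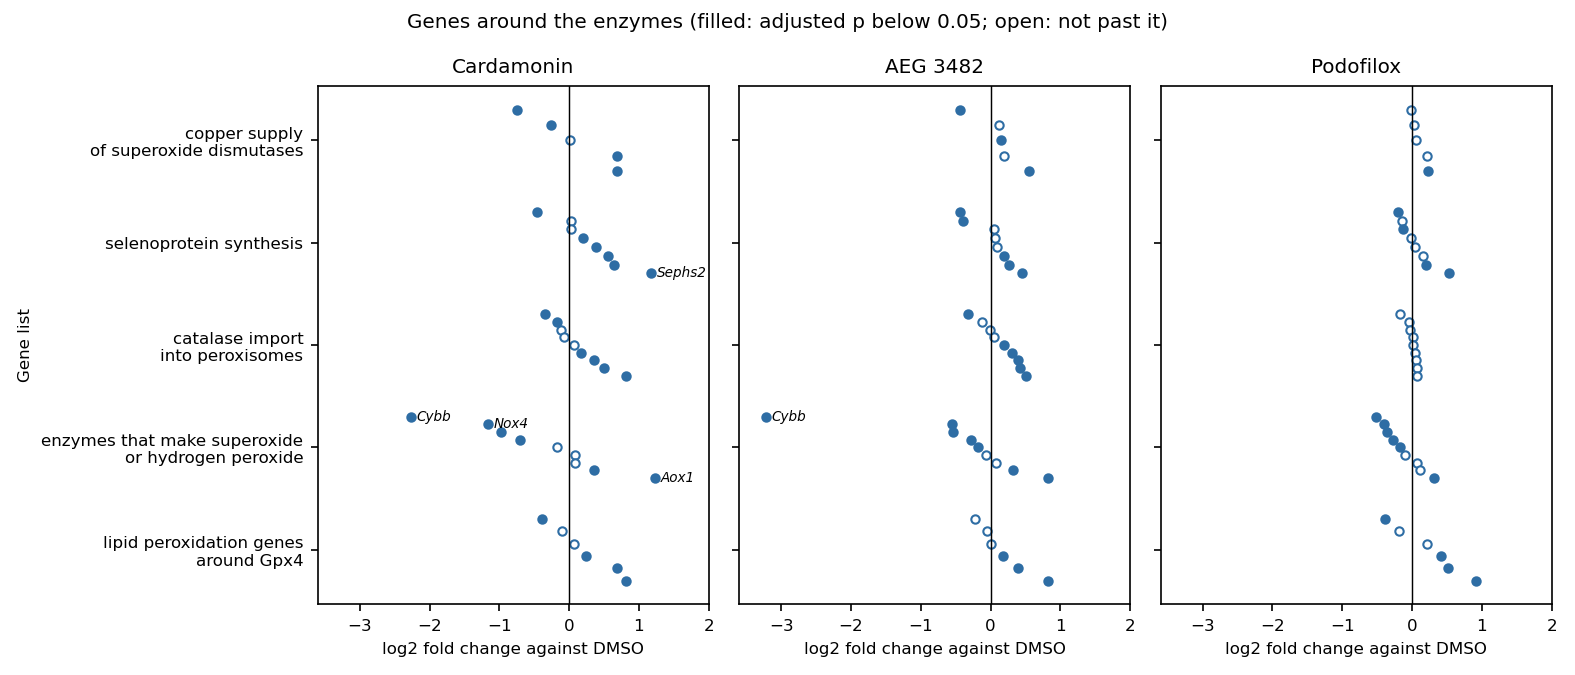
Change against DMSO in log2(TPM + 1) of every tested gene of the 5 lists, 1 point per gene, in Cardamonin, AEG 3482 and Podofilox, filled where limma's adjusted p was below 0.05, with names for changes beyond 1 in either direction. Cybb lies farthest to the left in Cardamonin and AEG 3482, at -2.27 and -3.22. Aox1 and Sephs2 lie farthest to the right, at 1.24 and 1.17 in Cardamonin.

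The 2 genes with the profile most like each member were found among 9616 candidates by Pearson's r over the 9 group means of log2(TPM + 1), given as a description. Cat was closest to Heph, a ferroxidase (0.999), and Ago3 (0.997), and Sod1 to Map1lc3b, an autophagy gene (0.994), and Rpa1 (0.989). Sod2 was closest to Dram1 (0.991) and Tstd3 (0.990), and Sod3 to Farp2 (0.986) and Tnn (0.975). For Gpx1 these were C1qtnf1 (0.991) and Myh10 (0.988), for Gpx3 Ankrd46 (0.998) and Ids (0.995), and for Gpx4 Ctnnbl1 (0.966) and Clta (0.958). For Gpx7 they were Flot1 (0.985) and Fut10 (0.984), and for Gpx8 Stmn2 (0.991) and Glb1l (0.984). The 9 points share the scaling of the table, and Cardamonin and AEG 3482 lie far from the rest for most members.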

How the data were processed

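The deposited table holds TPM, made by the authors with kallisto 0.43.1 and tximport and the mm10 build, per the submitters' processing notes and the series text; the transcript index is not given in the sources used here. The tximport version is not given either. Groups came from the treatment label of each library, and all 6 libraries labelled DMSO were used, although the series text speaks of 5.

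The 13644 genes that reached 1 TPM in 3 or more libraries entered limma 3.58.1 in R 4.3.3 as log2(TPM + 1), 1 mean per group, empirical Bayes with an intensity trend and Benjamini-Hochberg adjustment within each comparison. A fold change on this scale understates that of low genes, and the more so the lower their level. Symbols and positions were taken from GENCODE M21 (29426 of 29861 identifiers matched) and promoters from RefSeq on GRCm38.p6, the patch release of mm10. Neighbours in the order of levels were compared in all 28 direct contrasts between compounds. The script was tested on simulated data. The members, lists and tests were chosen with earlier results of these data known. All 9 members were named, genes of the functional lists were picked for naming after their values were seen, and the 2 genes most like each member by the highest r among genes with a mean of at least 5 TPM. Alternatives were other pseudocounts (0.1, 0.5), no filter or a mean of at least 5 TPM, median-ratio and quantile scaling, rescaling without the 20 most abundant genes, no trend, a replicate block, fits of 2 groups, leaving out each library, and exact permutation tests of single members.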

Additional observations from a re-analysis of the deposited data

How the results depend on the processing

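Exact permutation tests were judged by an unadjusted p below 0.05 and counted only for comparisons with DMSO. Between 2 compounds their p cannot go below 0.1. Of the 58 differences called for single members, 45 stayed called in every alternative run so counted. Those of Cat against DMSO and all of Sod3 and Gpx3 were among them. The others are listed by gene in the report or had an adjusted p of 0.0524 to 0.0700 in a fit of 2 groups alone. Leaving out 1 library gave 5 to 6 members called for Antimycin A, 8 to 9 for Cardamonin, 5 to 6 for Clofilium tosylate, 5 to 7 for Podofilox, 3 to 6 for Diphenyleneiodonium Cl (3 without its replicate 3) and 7 to 8 between Cardamonin and AEG 3482, and changed no count for AEG 3482, Dihydrorotenone or BerberineA. Over all genes, Dihydrorotenone called 1963 genes, but 898 in a fit of it and DMSO alone, and 1233 or 1266 when its replicate 1 or 2 was left out. The cause was not tested.

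Scaling moved the median of all genes in AEG 3482 from 0.10 to -0.04 under median-ratio scaling, and its small differences are to be read relative to that shift. Differences near 0 that were not called changed sign. Under median-ratio scaling these were Cat (0.0301), Sod2 (0.0068) and Gpx3 (0.0033) in Dihydrorotenone, Gpx8 in BerberineA (-0.0213), Gpx7 in AEG 3482 (-0.0506) and Sod1 between Antimycin A and Dihydrorotenone (-0.0143). Under quantile normalization they were Sod2 in Antimycin A (-0.0179), Cat in Dihydrorotenone (0.0028) and Gpx7 in AEG 3482 (-0.0595). Rescaling turned Gpx7 in Antimycin A (-0.0039), Gpx1 in Dihydrorotenone (-0.00017) and Gpx8 in BerberineA (-0.0174). Ccs in AEG 3482, called as deposited, read -0.0057 and -0.0253 under median-ratio and quantile scaling.

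Replicate numbers were shared between groups, and same-numbered libraries showed little shared deviation. The correlations of 108 pairs ran from -0.11 to 0.15, and 4 were over 0.1. Their median was 0.008, against 0.0008 for pairs with different numbers. Of 27 libraries 13 were closest to their own number, and the number expected by chance was not computed, so a weak pairing is not excluded. With the replicate block, 5 members were called in place of 6 for Diphenyleneiodonium Cl and for Podofilox, and 8 in place of 9 between Cardamonin and AEG 3482. The calls lost were Sod2 (adjusted p = 0.0694), Gpx4 (0.0972) and Sod1 (0.0516). Cat in Dihydrorotenone (0.0147) and BerberineA (0.0025), Gpx1 in Dihydrorotenone (-0.0073) and Gpx8 in BerberineA (-0.0379) changed sign under the block, and none of these was called.

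Leaving out libraries changed the sign of 10 uncalled differences. Their ranges were -0.0395 to 0.0183 for Cat, -0.0747 to 0.0038 for Gpx7 and -0.0476 to 0.0409 for Gpx8 in BerberineA, and -0.0424 to 0.0340 for Cat, -0.0148 to 0.0326 for Gpx1 and -0.0595 to 0.0114 for Gpx3 in Dihydrorotenone. For Gpx7 they were -0.0102 to 0.188 in AEG 3482 and -0.0219 to 0.123 in Antimycin A, for Gpx1 in Podofilox -0.142 to 0.0496, and for Gpx8 between Antimycin A and Dihydrorotenone -0.109 to 0.0054. An exact permutation test of 3 against 6 libraries cannot go below p = 0.0119. TPM keeps no depth, so no limit from counting error could be set.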
